A study of Mus musculus with 2 samples.

Results

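TRBJ1 joins are TCRβ clonotypes whose J segment came from the first of the 2 J clusters of the mouse TCRβ locus. They were taken as every clonotype whose first-listed J gene was a TRBJ1 gene, where a clonotype is a set of reads with 1 CDR3, the stretch across the V, D and J joins. They numbered 579 of 1640 TCRβ clonotypes in the thymus library and 862 of 2241 in the spleen library, out of 7732 and 11826 clonotypes of both chains. All 6 genes from TRBJ1-1 to TRBJ1-6 were found in both libraries, and no clonotype was assigned to TRBJ1-7, which the annotation also lists.

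The cells were iT cells, T cells that grew in mice from transplanted progenitors derived from embryonic stem cells. Both groups shared the same origin: C57BL/6-background iR9-ESC, which carry doxycycline-inducible Runx1 and Hoxa9 in Rosa26, and irradiated B-NDG recipients, which are immunodeficient and make no T cells of their own. At week 6 after transplantation, CD4 and CD8 single-positive CD45.2+ cells were sorted, 15000 for each library according to the labels, with a gate for naive cells (CD62L+CD44-) described for the spleen and with other lineages and TCRγδ cells gated out in thymus. The libraries are thus 1 thymus and 1 spleen sample, prepared from RNA with a commercial mouse TCR kit, and nothing in the sources says whether they came from the same mice. The labels list the naive gate for spleen alone while the study's text describes naive cells from both organs, so whether the gates differed is unclear, and if they did, gate and tissue cannot be told apart. No difference between the libraries has a replicate check.

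In the germline locus, a D segment, 6 functional J segments and the constant gene Cβ1 are followed by a second set of D, J and constant genes. A TRBJ1 gene is joined to TRBD1 first, and a V gene is joined to that D-J product afterwards. At each join, bases are trimmed from the ends of the segments and short palindromic or non-templated bases are added. A join in the wrong frame cannot encode a TCRβ chain, and mature T cells usually carry such a join only on the other allele.

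The germline J segments are shown because the results turn on where each of them is cut. The sequences are those of the GENCODE M21 annotation of GRCm38, plus strand of chromosome 6, 5′ to 3′, with the bases that lie inside the CDR3 in capitals.
TRBJ1-1: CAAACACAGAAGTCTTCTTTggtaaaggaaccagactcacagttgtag
TRBJ1-2: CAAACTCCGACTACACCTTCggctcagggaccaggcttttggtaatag
TRBJ1-3: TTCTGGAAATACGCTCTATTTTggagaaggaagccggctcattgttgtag
TRBJ1-4: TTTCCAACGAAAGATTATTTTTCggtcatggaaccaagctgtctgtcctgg
TRBJ1-5: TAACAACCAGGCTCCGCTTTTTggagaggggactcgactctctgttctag
TRBJ1-6: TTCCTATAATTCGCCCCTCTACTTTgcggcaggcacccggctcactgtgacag
TRBD1: gggacagggggc
TRBD2: gggactgggggggc
TRBJ1-1 lies at chr6:41533864-41533911, TRBJ1-2 at chr6:41534001-41534048, TRBJ1-3 at chr6:41534323-41534376, TRBJ1-4 at chr6:41534811-41534861, TRBJ1-5 at chr6:41535084-41535133 and TRBJ1-6 at chr6:41535554-41535606. Each is annotated as a TR J gene, and the span of TRBJ1-3 is 54 bases while its transcript holds 50. TRBD1 at chr6:41533201-41533212 lies upstream of all 6, and TRBC1 at chr6:41538218-41539881 and TRBD2 at chr6:41542163-41542176 lie downstream of them. TRBJ1-1 begins 651 bases after the end of TRBD1 and TRBJ1-6 begins 2341 bases after it. TRBJ1-1 and TRBJ1-2 share their first 5 bases and contribute the fewest bases to the CDR3, 20 each, while TRBJ1-6 contributes the most, 25. Of the clonotypes assigned to a gene, between 93.8% and 100% ended in the last 10 germline bases of that gene's CDR3 part.

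TRBJ1-2 was the most used gene of the cluster, and TRBJ1-1 and TRBJ1-2 differed between the libraries in opposite directions. By clonotypes, TRBJ1-2 made up 22.01% of TCRβ in thymus (Wilson 95% interval 20.1% to 24.1%, 361 clonotypes) and 17.2% in spleen (15.7% to 18.8%, 386 clonotypes), the largest share of the 12 TRBJ genes in both. TRBJ1-1 made up 4.51% in thymus (74 clonotypes) and 9.42% in spleen (211 clonotypes). TRBJ1-3 was the rarest in thymus, with 22 clonotypes or 1.34%, against 64 or 2.86% in spleen. TRBJ1-4 had 46 and 75 clonotypes, TRBJ1-5 44 and 66, and TRBJ1-6 32 and 60, in thymus and spleen respectively. The shares of these last 3 genes lay between 1.95% and 3.35%, with intervals that overlapped one another within each library.

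Fisher's exact test, two-sided, was run for each of the 12 TRBJ genes, and 5 of them (41.7%) passed an adjusted p of 0.05. TRBJ1 genes were 3 of these 5. TRBJ1-2 was 4.79 percentage points higher in the thymus library (adjusted exact p = 0.00124). TRBJ1-1 was lower in the thymus library (difference -4.90 points, adjusted exact p = 4.32e-08), and so was TRBJ1-3 (difference -1.51 points, adjusted exact p = 0.00395). TRBJ1-4, TRBJ1-5 and TRBJ1-6 did not pass, with adjusted p of 0.468, 0.759 and 0.247. The call of TRBJ1-3 was lost with a minimum of 10 reads (adjusted exact p = 0.0647) and among productive clonotypes (adjusted exact p = 0.0671). The tests compare the clonotypes of these 2 libraries and not the tissues, and clonotypes found in both libraries make them approximate.

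The cluster as a whole differed less than TRBJ1-1 or TRBJ1-2 alone. TRBJ1 clonotypes were 35.3% of TCRβ in thymus (33.0% to 37.6%) and 38.5% in spleen (36.5% to 40.5%), a difference of -3.16 points (Fisher's exact test, two-sided, p = 0.0472). The call was lost with a minimum of 2 reads (exact p = 0.0870) or 10 reads (exact p = 0.0603).

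**Figure D1:**
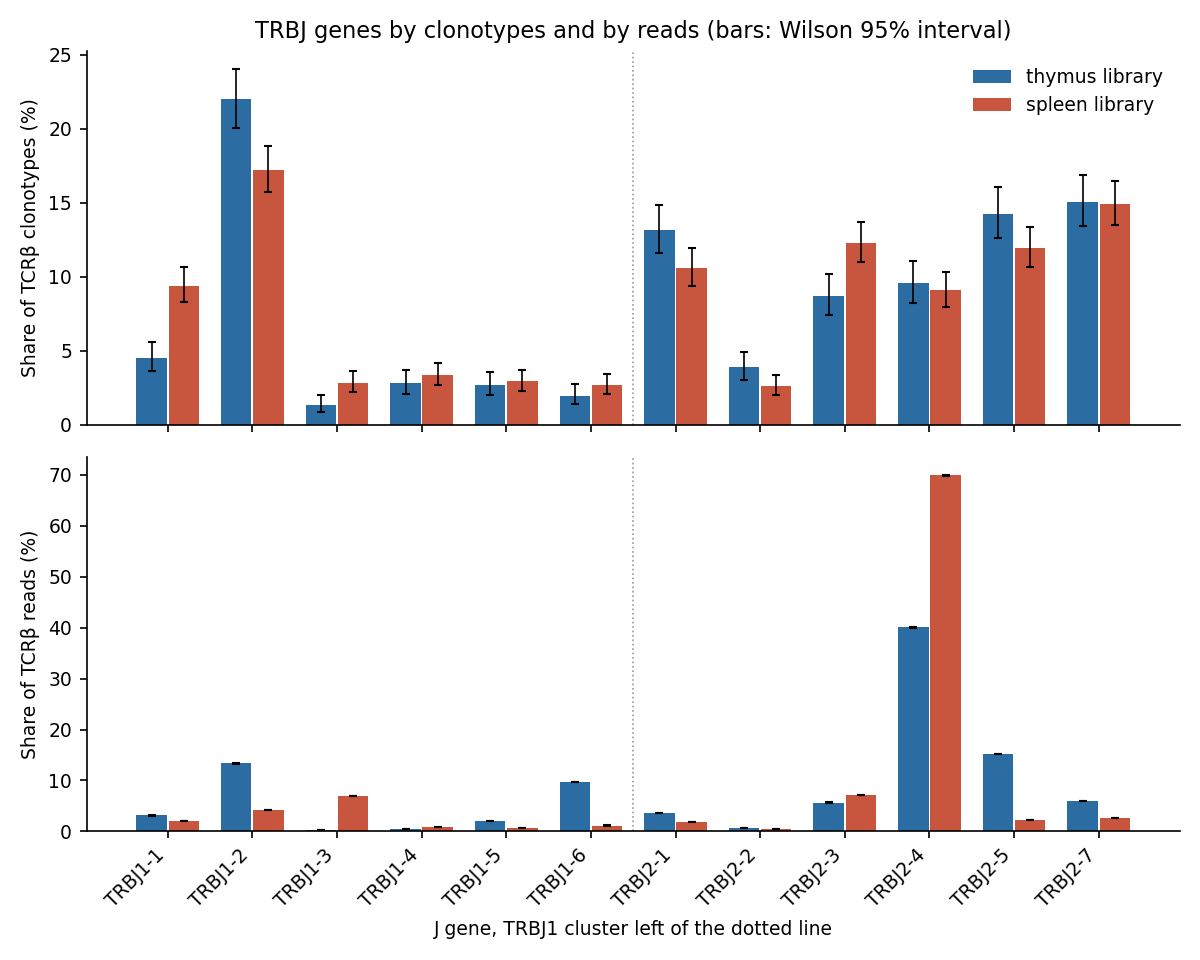
Share of TCRβ clonotypes (upper axis, %) and of TCRβ reads (lower axis, %) for each of 12 TRBJ genes in thymus and spleen libraries, with Wilson 95% intervals as error bars. TRBJ1-2 has the tallest clonotype bars in both libraries, and the read bars of TRBJ1-6 (9.66% in thymus) and TRBJ1-3 (6.94% in spleen) stand far above their clonotype bars.

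By reads, most of the share of TRBJ1-6 in thymus and of TRBJ1-3 in spleen came from 1 clonotype each. TRBJ1 clonotypes held 515688 of 1782199 TCRβ reads in thymus, or 28.9%, and 436044 of 2765086 in spleen, or 15.8%. Reads are amplified cDNA, no molecular identifiers were stated, and intervals therefore cover counting error only. TRBJ1-2 held 13.3% of TCRβ reads in thymus and 4.22% in spleen. TRBJ1-6 held 9.66% in thymus against 1.14% in spleen, and TRBJ1-3 held 0.317% against 6.94%. TRBJ1-1 held 3.12% and 2.03%, TRBJ1-5 held 1.99% and 0.670%, and TRBJ1-4 held 0.509% and 0.767%. With the leading clonotype of the gene taken out of the gene and of the total, TRBJ1-6 fell to 0.449% in thymus and 0.357% in spleen, and TRBJ1-3 to 0.235% and 0.958%. TRBJ1-2 kept 10.1% and 3.83% without its leading clonotype.

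The effective number of clonotypes says how many clonotypes of equal size would give the same Shannon diversity of reads. In thymus it was lowest for TRBJ1-6, at 1.29, and highest for TRBJ1-2, at 30.4, and in spleen it was lowest for TRBJ1-3, at 2.07, and highest for TRBJ1-2, at 132. TRBJ1-1 had 6.29 in thymus and 109 in spleen. The thymus and spleen values were 10.9 and 46.1 for TRBJ1-4 and 11.9 and 22.02 for TRBJ1-5, while TRBJ1-3 had 10.9 in thymus and TRBJ1-6 had 5.20 in spleen. Over the whole cluster the effective number was 28.9 in thymus and 61.3 in spleen. The median clonotype had 96 reads in thymus and 138.5 in spleen, so the typical TRBJ1 clonotype was far below the leading ones.

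**Figure D2:**
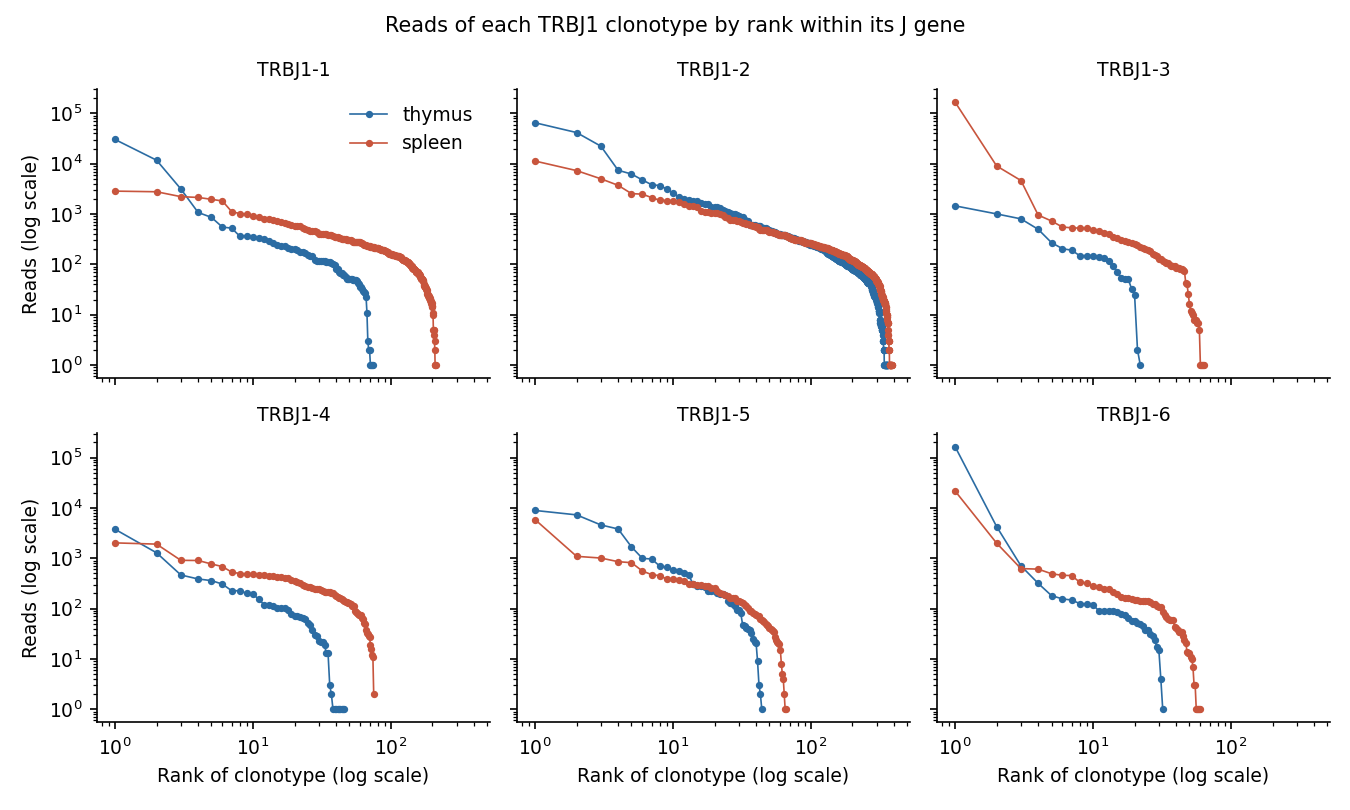
Reads of each TRBJ1 clonotype (log scale) against its rank within its J gene (log scale), 1 panel per gene and 1 point per clonotype. The first points of TRBJ1-6 in both libraries and of TRBJ1-3 in spleen stand far above the second points (164823 against 4260 reads for TRBJ1-6 in thymus, 167133 against 9022 for TRBJ1-3 in spleen).

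The CDR3s of the leading clonotypes are shown because they set the read shares. The capitals mark the bases at the 3′ end that match the germline J without a break.
TRBJ1-1, TRBV29, thymus: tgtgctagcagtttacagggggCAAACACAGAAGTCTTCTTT
TRBJ1-1, TRBV19, spleen: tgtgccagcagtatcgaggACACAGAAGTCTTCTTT
TRBJ1-2, TRBV13-3, thymus: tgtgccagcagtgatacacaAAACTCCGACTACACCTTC
TRBJ1-2, TRBV17, spleen: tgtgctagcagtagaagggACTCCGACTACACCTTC
TRBJ1-3, TRBV19, spleen: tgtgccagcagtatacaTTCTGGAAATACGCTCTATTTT
TRBJ1-5, TRBV19, thymus: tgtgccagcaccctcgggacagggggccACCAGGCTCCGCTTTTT
TRBJ1-6, TRBV13-3, both: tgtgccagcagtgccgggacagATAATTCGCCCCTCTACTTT
The TRBJ1-6 clonotype with TRBV13-3 led its gene in both libraries, with 164823 reads in thymus (9.25% of TCRβ reads, 95.8% of the reads of TRBJ1-6) and 21682 in spleen (0.784%, 68.9% of the gene). The TRBJ1-3 clonotype with TRBV19 had 167133 reads in spleen, 6.04% of TCRβ reads and 87.0% of the reads of TRBJ1-3, and 802 reads or 0.0450% in thymus, where TRBJ1-3 had 2 clonotypes with more reads. The TRBJ1-2 clonotype with TRBV13-3 had 65094 reads in thymus (3.65%) and 7291 in spleen (0.264%). The spleen's leading TRBJ1-2 clonotype, with TRBV17, had 11294 reads there (0.408%) and 22291 in thymus (1.25%). The TRBJ1-1 clonotype with TRBV29 had 30274 reads in thymus (1.70%) and 1961 in spleen (0.0709%). Each of these 5 clonotypes was thus present in both libraries, with its larger read share in thymus except for the TRBJ1-3 clonotype.

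Leading clonotypes of the less used genes were smaller. TRBJ1-5 was led by a TRBV19 clonotype in thymus (8916 reads, 0.5003%, against 474 in spleen) and by a TRBV13-3 clonotype in spleen (5865 reads, 0.212%, against 7284 in thymus). TRBJ1-4 was led by a TRBV4 clonotype in thymus (3768 reads, 0.211%, against 1911 in spleen). In spleen it was led by a TRBV31 clonotype with 2023 reads (0.0732%), which was not found in thymus, where 3 reads would be 0.000168% of TCRβ reads. TRBJ1-3 was led in thymus by a TRBV16 clonotype with 1454 reads (0.0816%), which had 9022 in spleen. TRBJ1-1 was led in spleen by a TRBV19 clonotype with 2853 reads (0.103%), which had 3147 in thymus. All leading clonotypes were productive, which means that their CDR3 was in frame and held no stop codon.

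With every clonotype counted, TRBJ1-1 and TRBJ1-2 were mostly left whole or cut by a single base, while TRBJ1-4, TRBJ1-5 and TRBJ1-6 were cut further in. The position where the aligned J began was taken from the deposited reference points, which follow MiXCR's own gene library. A start upstream of the germline J means that further bases matched that library, which was not available here. Where those bases came from was not tested. An untrimmed J could also hold a mismatch, as the leading thymus TRBJ1-4 clonotype had an unbroken match of 22 of 23 germline bases. The median number of J bases trimmed was 0 for TRBJ1-1 in both libraries (quartiles 0 and 2.75 in thymus, 0 and 3 in spleen). It was 1 for TRBJ1-2 in both (quartiles 0 and 1) and 1 for TRBJ1-3 in both, with upper quartiles of 2.75 and 4. For TRBJ1-4 it was 6 in thymus and 3 in spleen, and for TRBJ1-5 and TRBJ1-6 it was 5 in both libraries. The low TRBJ1-1 median depended on a recurrent D-J joint, described below. With each joint counted once it was 2 in both libraries, while the medians of TRBJ1-2 and TRBJ1-3 stayed at 1. Among out-of-frame clonotypes the TRBJ1-1 median was 4 in thymus (14 clonotypes) and 0 in spleen (28). The TRBJ1-4 median was 0 in both libraries among its out-of-frame clonotypes, which were only 5 in thymus and 7 in spleen. Weighted by reads, it was 2 in thymus and 3 in spleen. The shares of clonotypes with no J base trimmed were 66.2% and 59.2% for TRBJ1-1, 37.1% and 45.3% for TRBJ1-2, 50% and 50% for TRBJ1-3, 15.2% and 24.0% for TRBJ1-4, 2.27% and 9.09% for TRBJ1-5, and 3.13% and 13.3% for TRBJ1-6, in thymus and spleen. With every clonotype counted, the order of the genes by median trimming was the same in the libraries, except for TRBJ1-4. It had the largest median in thymus and a smaller one than TRBJ1-5 and TRBJ1-6 in spleen. For the whole cluster 35.1% of thymus and 42.2% of spleen clonotypes had an untrimmed J, against 22.6% and 22.6% for TRBJ2.

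In TRBJ1-2 the start of the aligned J differed between the libraries in 2 positions, both with no J base trimmed by the aligner's count. Where gga comes before the J, that count cannot tell an untrimmed J from a trimmed one, because TRBD1 also holds gga followed by ca. The 2 positions differ only in whether the base before the J matched the aligner's reference. The contrast is therefore not separate from that of the bases before the J, given below. The aligned J began exactly at the germline start in 78 of 361 thymus clonotypes (21.6%) and 17 of 386 spleen clonotypes (4.40%), and 1 matched base upstream of it in 34 (9.42%) and 133 (34.5%). A single base was missing in 177 (49.0%) and 157 (40.7%). These positions were singled out after their values were seen. A further 15 thymus clonotypes lacked 8 bases, against 0 in spleen, and these had 1 to 8 reads each, with a median of 1. The untrimmed share of TRBJ1-1 was 76.3% of 59 productive and 26.7% of 15 non-productive clonotypes in thymus, and 57.4% of 183 and 71.4% of 28 in spleen, so the order of the frames was opposite. In TRBJ1-6, a start 5 bases in was the most common in both libraries, with 15 of 32 (46.9%) and 19 of 60 (31.7%).

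**Figure D3:**
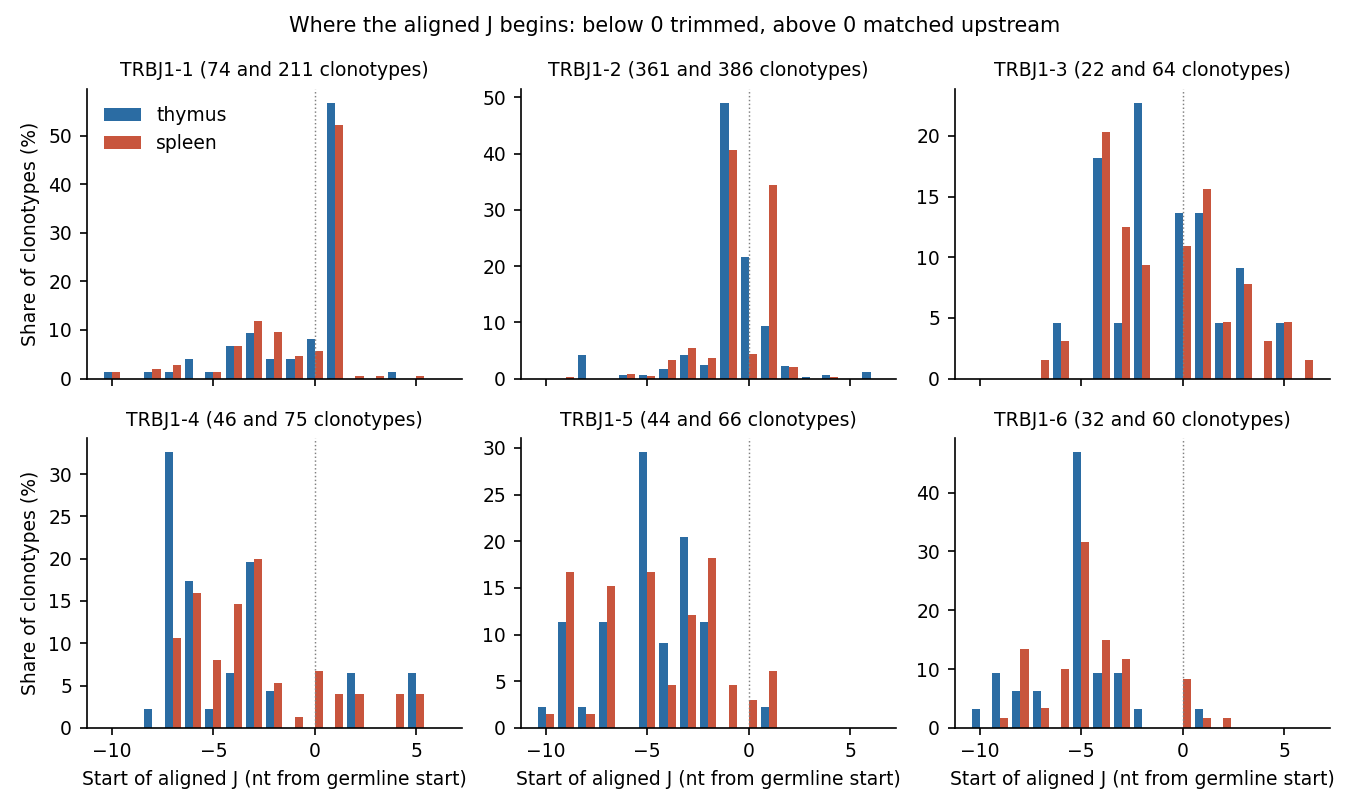
Position of the first aligned J base relative to the germline start of the gene (nucleotides, with positions from -10 to 6 drawn) against the share of clonotypes (%, scale differing between panels), by J gene and library, with no error bars. TRBJ1-1 peaks 1 base upstream of its start in both libraries, TRBJ1-2 peaks at -1 with a second spleen peak at 1, and TRBJ1-5 and TRBJ1-6 lie mostly below 0.

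The same D-J joint recurred with many V genes, and the single most frequent joint took its largest share of clonotypes in TRBJ1-1. A joint was read as the last bases of the CDR3, as many as the germline J can contribute and 6 more, in CDR3s shorter than 70 bases with room for at least 6 further bases upstream. Joints were looked at after the clonotypes had been seen, so their counts are a description and have no test. The joints found most often in TRBJ1-1, TRBJ1-2 and TRBJ1-5 are shown, with the unbroken match to the germline J in capitals.
TRBJ1-1 joint: gggcagCAAACACAGAAGTCTTCTTT
TRBJ1-2 joint, most common in spleen: ggacagCAAACTCCGACTACACCTTC
TRBJ1-2 joint, most common in thymus: cgggacaAAACTCCGACTACACCTTC
TRBJ1-2 joint, found mostly in thymus: ccgggaCAAACTCCGACTACACCTTC
TRBJ1-5 joint: gacagggggccACCAGGCTCCGCTTTTT
The TRBJ1-1 joint was carried by 24 of 70 thymus clonotypes (34.3%, 24.2% to 46.0%) with 12 V genes and by 92 of 207 spleen clonotypes (44.4%, 37.8% to 51.3%) with 15 V genes, and 10 V genes were the same in both. Its reads were spread over the clonotypes, of which the median had 117 reads and the largest 550 in thymus, against 150.5 and 2772 in spleen. In spleen 77 of the 92 were productive and 15 were not, and in thymus 23 of 24 were. Within the joint, the longest run of bases shared with TRBD1 was 4. Bases further upstream were not counted in this run, and TRBD1 was assigned to 16 of the 24 thymus clonotypes and 71 of the 92 spleen clonotypes. Of the clonotypes on this joint, 11 were found in both libraries, out of the 24 in thymus and the 92 in spleen.

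The clonotypes with most reads for the 4 V genes most often found on this joint in spleen show how the bases before it differ while the joint, in capitals, stays the same.
TRBV19: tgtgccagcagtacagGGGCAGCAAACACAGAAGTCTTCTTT
TRBV31: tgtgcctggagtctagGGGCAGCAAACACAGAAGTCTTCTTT
TRBV13-3: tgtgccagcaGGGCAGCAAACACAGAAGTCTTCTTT
TRBV16: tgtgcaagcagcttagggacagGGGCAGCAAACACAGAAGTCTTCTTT
They had 2772, 859, 1022 and 1818 reads, and TRBV19 was the V gene of 16 spleen clonotypes on the joint, TRBV31 of 12, TRBV13-3 of 9 and TRBV16 of 7.

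TRBJ1-2 used several joints rather than a single one. The joint beginning with ggacag was carried by 13 of 344 thymus clonotypes (3.78%, 8 V genes) and 50 of 369 spleen clonotypes (13.6%, 15 V genes). The joint with cgggaca was carried by 22 in thymus (6.395%, 13 V genes) and 17 in spleen (4.61%, 12 V genes), and that with ccggga by 15 (4.36%, 9 V genes) and 1 (0.271%). In each of these 3 joints the longest run shared with TRBD1 was 6 bases. The TRBJ1-5 joint was carried by 11 of 34 thymus clonotypes (32.4%, 9 V genes) and 6 of 50 spleen clonotypes (12%, 5 V genes), and shared a run of 10 bases with TRBD1. With these 6 upstream bases, no joint of TRBJ1-3, TRBJ1-4 or TRBJ1-6 was found in more than 3 clonotypes of a library. Distinct joints were 33 among 70 thymus and 93 among 207 spleen clonotypes of TRBJ1-1, against 40 among 46 and 68 among 74 of TRBJ1-4. With 3 upstream bases, a TRBJ1-4 joint was found in 8 of 46 thymus clonotypes (7 V genes) and 2 of 75 spleen clonotypes. A TRBJ1-3 joint was then found in 3 of 22 thymus clonotypes and 9 of 64 spleen clonotypes (6 V genes).

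With a window of 3 bases upstream, the complete TRBJ1-1 and TRBJ1-2 segments were preceded by the same bases in spleen. TRBJ1-1 was complete in 123 spleen clonotypes, and cag preceded it in 99 of them (80.5%, 72.6% to 86.5%). In thymus cag preceded 25 of 49 (51.0%, 37.5% to 64.4%) and ggg 15. TRBJ1-2 was complete in 163 spleen clonotypes with cag before 101 (62.0%, 54.3% to 69.1%), and in 127 thymus clonotypes with cag before 24 (18.9%, 13.0% to 26.6%) and gga before 52 (40.9%, 32.8% to 49.6%). The intervals of the libraries did not overlap in either gene, but they count each clonotype as separate although many shared a joint. This contrast was picked after the data had been seen, was not tested and has no replicate. Another frequent form of TRBJ1-2, which lacks the first J base and begins with gaca, differed less: 82 of 351 thymus clonotypes (23.4%, 19 V genes) and 75 of 374 spleen clonotypes (20.1%, 21 V genes). The bases cag are part of TRBD1, in which gga precedes and ggg follows them. On the TRBJ1-1 joint shown above ggg precedes cag instead, and the longest run that joint shared with TRBD1 was 4 bases. The bases gga are also part of TRBD1, followed there by ca, the bases with which TRBJ1-2 begins. The first bases of a complete TRBJ1-2 after gga could therefore come from either segment. TRBJ1-3 was preceded most often by aca, in 4 of 11 and 7 of 31 complete segments.

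**Figure D4:**
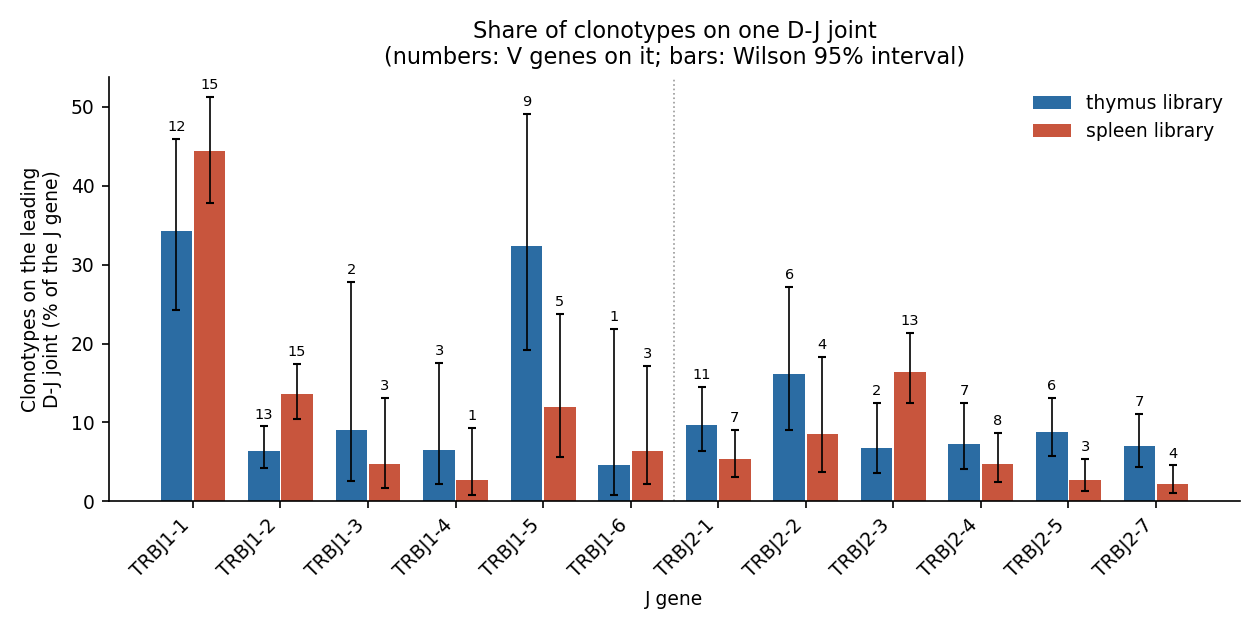
Share of clonotypes (%) that carry the most frequent D-J joint of each TRBJ gene, among the clonotypes of that gene in which a joint could be read. Error bars are Wilson 95% intervals, and the number of V genes on that joint is printed above each bar. TRBJ1-1 stands highest in both libraries (34.3% in thymus, 44.4% in spleen), followed by TRBJ1-5 in thymus (32.4%).

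Recurrent joints were found in both clusters. Shares here are of the clonotypes in which a joint could be read, 538 of TRBJ1 and 1009 of TRBJ2 in thymus, and 810 and 1320 in spleen. Clonotypes on a joint found with 2 or more V genes were 42.2% of these for TRBJ1 and 42.5% for TRBJ2 in thymus, and 40.5% and 34.5% in spleen. By gene this share was 61.4% for TRBJ1-1 and 51.5% for TRBJ2-3 in thymus, and 59.4% and 59.7% in spleen. With 10 upstream bases it was 22.7% and 31.1% in thymus, and 40.4% and 29.9% in spleen, so the order of these genes depended on the window and the library. The most frequent TRBJ2 joint by share was that of TRBJ2-3 in spleen, with 44 of 268 clonotypes (16.4%) and 13 V genes. When clonotypes with the same J gene and joint were counted once, TRBJ1-1 was still lower in the thymus library (difference -2.74 points, adjusted exact p = 0.00683), and TRBJ1-2 was still higher (difference 6.03 points, adjusted exact p = 0.000772). The difference of the cluster as a whole was then -0.532 points (exact p = 0.807). This count was added after the data had been seen.

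The D gene assigned to TRBJ1 clonotypes was mostly TRBD1. In thymus 257 of 579 (44.4%) were assigned TRBD1, 24 (4.15%) TRBD2 and 298 (51.5%) no D gene. In spleen the counts were 484 of 862 (56.1%), 20 (2.32%) and 358 (41.5%). TRBJ2 clonotypes were assigned TRBD2 in 58.2% and 47.0%. TRBD2 lies downstream of every TRBJ1 gene, and of the TRBJ1 clonotypes with a D gene it was named in 8.54% (5.81% to 12.4%) in thymus and 3.97% (2.58% to 6.05%) in spleen. These clonotypes held 1336 and 3278 reads in all. The larger thymus share depended on clonotypes with few reads. With a minimum of 2 reads, TRBD2 was named in 2.59% of all TRBJ1 clonotypes in thymus and 2.41% in spleen. With a minimum of 10 the shares were 2.17% and 2.39%. The median D alignment score in TRBJ1 clonotypes was 35 for TRBD1 and 35 for TRBD2 in both libraries, against 50 and 45 for TRBD2 in TRBJ2 clonotypes, and both D genes begin with the same 5 bases. Between D and J, no base was inserted in 71.5% and 70.6% of the TRBJ1-2 clonotypes with a D gene, the highest share of the cluster in thymus. In spleen TRBJ1-3 was higher, at 80.0% of 40 clonotypes, and TRBJ1-1 had 38.2% of 152.

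The constant gene named was TRBC2 in all 577 thymus and all 857 spleen TRBJ1 clonotypes with a C gene, and TRBC1 in 0, although TRBC1 is the constant gene next to TRBJ1. In the GENCODE transcripts of the 2 genes the first 100 bases held 0 differences and the first difference lay at base 260, so the C gene name does not separate them in reads that end before it.

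The V partners of TRBJ1 and TRBJ2 were largely the same, with TRBV20 and TRBV26 more often on TRBJ1 and TRBV4 less often. Both clusters lie downstream of the same V genes (TRBV31 excepted, which lies beyond them), so they were compared within each library over the 22 V genes with at least 10 TCRβ clonotypes. Fisher's exact test, two-sided, called 4 of 22 (18.2%) in thymus and 4 of 22 (18.2%) in spleen. TRBV20 made up 61 of 579 TRBJ1 clonotypes in thymus (10.5%, against 4.71% of TRBJ2, adjusted exact p = 0.000281) and 85 of 862 in spleen (9.86% against 5.80%, adjusted exact p = 0.00541). TRBV26 made up 3.11% against 1.04% in thymus (adjusted exact p = 0.0366) and 3.83% against 1.45% in spleen (adjusted exact p = 0.00541). TRBV4 made up 2.42% against 5.84% in thymus (adjusted exact p = 0.0142) and 1.39% against 3.26% in spleen (adjusted exact p = 0.0413). TRBV13-1 was called in thymus only, with 3.28% against 6.31% (adjusted exact p = 0.0421), and TRBV16 in spleen only, with 7.42% against 10.8% (adjusted exact p = 0.0424). The difference between the libraries in these contrasts was not tested. Among productive clonotypes alone, the calls of TRBV13-1 and TRBV4 in thymus and of TRBV16, TRBV20 and TRBV4 in spleen were lost. With a minimum of 10 reads the spleen calls of TRBV16, TRBV4 and TRBV26 were lost, and merging of near-identical clonotypes ended those of TRBV13-1 in thymus and TRBV16 in spleen.

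**Figure D5:**
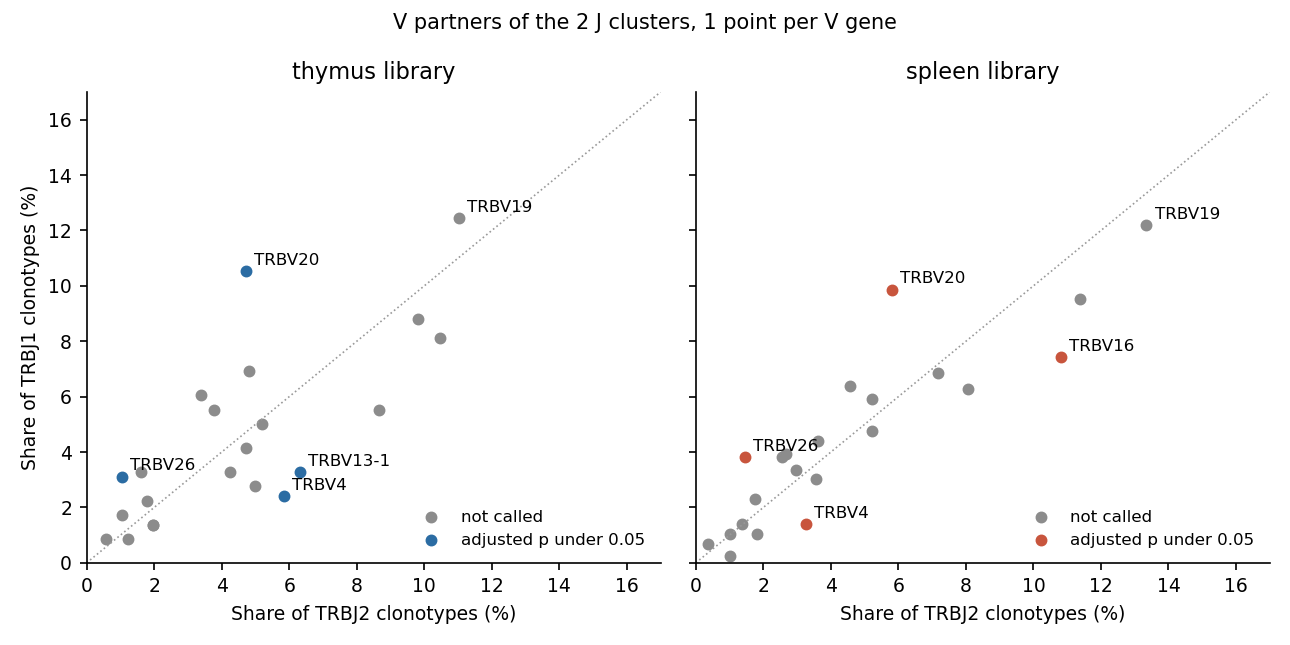
Share of TRBJ1 clonotypes (vertical axis, %) against share of TRBJ2 clonotypes (horizontal axis, %) for each of 22 V genes in each library, with coloured points for an adjusted p under 0.05 and a dotted line of equal shares. TRBV20 and TRBV26 lie above the line and TRBV4 below it in both panels.

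Within the cluster, TRBV19 was the V gene with the most clonotypes for TRBJ1-1 (11 in thymus and 29 in spleen) and TRBJ1-2 (48 and 52), and its pair with TRBJ1-2 was the one with the most clonotypes of 105 TRBJ1 V-J pairs in thymus and of 118 in spleen. These 48 and 52 clonotypes held only 0.585% and 0.209% of TCRβ reads. The pairs with the most reads were TRBV13-3 with TRBJ1-6 in thymus, where 5 clonotypes held 165054 reads, and TRBV19 with TRBJ1-3 in spleen, where 5 clonotypes held 167532. TRBJ1-4 was joined most often to TRBV13-2 in spleen (8 clonotypes), and to TRBV13-2 and TRBV13-3 equally in thymus (6 each). For TRBJ1-3, TRBV20 led in spleen (8), and TRBV16, TRBV19 and TRBV31 were tied in thymus (3 each). For TRBJ1-5, TRBV20 led in thymus (6), and TRBV1, TRBV13-2 and TRBV19 were tied in spleen (6 each). TRBJ1-6 was joined most often to TRBV13-3 in thymus (5) and TRBV1 in spleen (8). At these counts the leading V gene of the less used J genes rests on few clonotypes.

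Likeness of V profiles was measured as the overlap of clonotype shares summed over V genes, which is 100% for equal profiles. TRBJ1-1 was nearest to TRBJ1-2 in thymus (80.8%) and to TRBJ1-5 in spleen (83.6%), and TRBJ1-2 was nearest to TRBJ1-1 in both (80.8% and 83.1%). TRBJ1-3 was nearest to TRBJ1-1 (67.8%) and TRBJ1-2 (74.2%), TRBJ1-4 to TRBJ2-4 (71.7%) and TRBJ1-5 (82.2%), TRBJ1-5 to TRBJ1-2 (73.4%) and TRBJ1-1 (83.6%), and TRBJ1-6 to TRBJ2-5 in both libraries (70.3% and 81.2%). TRBJ1-2 overlapped with itself across the libraries by 88.9%. The genes had 22 to 386 clonotypes, and values of genes with few clonotypes are the least precise.

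Most TRBJ1 clonotypes were in frame, TRBJ1-4 most often. Productive clonotypes were 424 of 579 in thymus (73.2%, 69.5% to 76.7%) and 681 of 862 in spleen (79.0%, 76.2% to 81.6%), a difference of -5.77 points (Fisher's exact test, two-sided, p = 0.0131). By reads, productive clonotypes were 93.2% and 95.9%. TRBJ1-4 was productive in 89.1% and 90.7% of clonotypes, TRBJ1-1 in 79.7% and 86.7%, TRBJ1-3 in 81.8% and 75%, TRBJ1-6 in 75% and 80.0%, TRBJ1-2 in 70.1% and 73.6%, and TRBJ1-5 in 65.9% and 75.8%, in thymus and spleen. The intervals of TRBJ1-4 (77.0% to 95.3% and 82.0% to 95.4%) lay above those of TRBJ1-2 (65.2% to 74.6% and 69.0% to 77.7%) in both libraries. Against TRBJ2, TRBJ1 clonotypes were productive in 73.2% versus 72.5% in thymus (adjusted exact p = 0.772) and in 79.0% versus 74.3% in spleen (adjusted exact p = 0.0251). The spleen call was lost with a minimum of 2 reads (adjusted exact p = 0.316) and without TRBJ1-1 (2.17 points, adjusted exact p = 0.595).

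Non-productive clonotypes held a larger share of reads in TRBJ1-1 and TRBJ1-5 of the thymus. By reads, 76.6% of TRBJ1-1 was productive in thymus against 92.4% in spleen, and TRBJ1-5 had 77.0% and 87.9%. A TRBV17 clonotype of 34 bases out of frame held 11741 reads in thymus (0.659% of TCRβ reads) and 2137 in spleen (0.0773%). It was the only one not productive among the 10 TRBJ1 clonotypes of both libraries with the highest read share.

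Productive CDR3s differed in length between the genes by a few bases. The mean was 39.2 ± 5.05 nt (SD over 253 clonotypes) for TRBJ1-2 in thymus and 39.7 ± 3.74 nt (284) in spleen, and 41.6 ± 4.64 nt (59) and 41.4 ± 4.56 nt (183) for TRBJ1-1. TRBJ1-3 had 44.3 ± 4.31 nt (18) and 42.1 ± 3.42 nt (48), TRBJ1-4 had 42.3 ± 4.23 nt (41) and 42.8 ± 4.36 nt (68), TRBJ1-5 had 39.1 ± 7.71 nt (29) and 38.9 ± 6.28 nt (50), and TRBJ1-6 had 41.0 ± 5.06 nt (24) and 42.8 ± 6.88 nt (48). TRBJ1-2 and TRBJ1-5 were thus the shortest in both libraries, and the differences between genes were of about the size of the SD over clonotypes or smaller. The genes with the longest germline part, TRBJ1-4 and TRBJ1-6, were also the most trimmed together with TRBJ1-5.

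A set of very long TRBJ1-2 clonotypes held the end of TRBJ1-1. They numbered 7 of 361 in thymus and 10 of 386 in spleen, were 169 to 183 bases long and were all out of frame or held a stop codon. In each, a joined TRBJ1-1 was followed by 89 bases and then by TRBJ1-2, and 89 bases is the distance between these genes in the annotation. In 6 thymus and 8 spleen cases the part up to TRBJ1-1 was also present in the same library as an ordinary TRBJ1-1 clonotype. The 2 with the most reads in thymus are shown up to the end of the CDR3 part of TRBJ1-1.
TRBV17: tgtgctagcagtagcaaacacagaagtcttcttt
TRBV29: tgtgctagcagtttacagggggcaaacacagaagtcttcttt
The first had 867 reads beside 11741 of the TRBJ1-1 clonotype with the same joined part, and the second 304 beside 30274. In spleen the first had 335 reads beside 2137. The ratio was not always small, and in spleen a TRBV19 case had 116 reads beside 14. These clonotypes held 0.575% and 0.680% of TRBJ1-2 reads, and leaving them out left every call of a TRBJ1 gene as it was. They were found after the data had been seen, and by the rule used here they count as TRBJ1-2.

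A part of the TRBJ1 clonotypes was found in both libraries. By the nucleotide sequence of the CDR3, 172 were shared, which is 29.7% of the thymus and 19.95% of the spleen clonotypes, and they held 88.7% and 71.7% of TRBJ1 reads. Sharing was not particular to TRBJ1. Of the TRBJ2 clonotypes 217 were shared, or 20.5% in thymus and 15.7% in spleen, with 90.6% and 91.8% of TRBJ2 reads. All 172 shared TRBJ1 clonotypes were assigned the same J gene in both, and 167 also the same V gene. By gene, 97 were TRBJ1-2, 27 TRBJ1-1, 19 TRBJ1-5, 12 TRBJ1-4, 11 TRBJ1-3 and 6 TRBJ1-6. The same 27 TRBJ1-1 clonotypes were 36.5% of 74 in thymus (26.4% to 47.9%) and 12.8% of 211 in spleen (8.95% to 18.0%). This contrast follows from the 2 totals and is not a separate result. The shared TRBJ1-2 clonotypes were 26.9% and 25.1% of that gene. All of the 20 leading TRBJ1 clonotypes of the thymus were found in spleen, and 17 of the 20 leading of the spleen were found in thymus. Among the shared clonotypes, 99 had the larger read share in thymus and 73 in spleen.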

How the data were processed

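TCR transcripts of 2 libraries of sorted iT cells were analysed. The authors generated reads with bcl2fastq, aligned them with MiXCR, which uses a gene library of its own, and assembled clonotypes. The deposited values are a count of reads per clonotype, not normalized, and that count as a fraction of the library total. Totals were 2700370 reads for thymus and 4585403 for spleen. Filters and molecular identifiers are not given in the sources used here.

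TCRβ clonotypes were those whose first-listed J gene was a TRBJ gene, and TRBJ1 clonotypes those with a TRBJ1 gene. All were kept, with no read minimum and in any frame. Shares were recomputed over TCRβ, with Wilson 95% intervals, and 3 reads were taken as the floor of 1 library. J trimming came from the deposited reference points. Fisher's exact tests, two-sided, were adjusted by Benjamini-Hochberg over 12 J genes, over the V genes of a library, or over 2 libraries. The genes named were all 6 TRBJ1 genes, the leading clonotype and V gene of each, the leading V-J pairs, each called V gene and the nearest V profile; other clonotypes and joints were named after their values were seen. Coordinates and germline sequences came from GENCODE M21 (GRCm38), and no coordinates were taken from the deposited files. The members and lists were chosen with earlier results of these data known. Alternatives were read minimums of 2 and 10, productive clonotypes only, tied J genes left out, merging of clonotypes 1 base apart with at least 20 times the reads, and clonotypes of both libraries left out. Python 3, numpy, pandas, scipy and matplotlib were used.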

Additional observations from a re-analysis of the deposited data

How the results depend on the processing

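With 1 library per tissue, no library could be left out. No paired analysis was possible because the labels give 1 sample per tissue and no result has replicates. No clonotype had J genes tied at the top score, so that alternative changed no value. Differences are in percentage points. The TRBJ1 share of clonotypes, thymus against spleen, was -2.86 (exact p = 0.0870) with at least 2 reads, -3.24 (exact p = 0.0603) with at least 10, and -0.532 (exact p = 0.807) with each D-J joint counted once. Of 12 TRBJ genes, 3 were called with at least 10 reads, among productive clonotypes and with each joint counted once, against 5. The larger difference was that of TRBJ1-2 with at least 2 reads (5.38 against -5.15 for TRBJ1-1) and with each joint counted once (6.03 against -2.74). TRBJ1-1 and TRBJ1-2 kept their calls and directions under all 8 alternatives each, with adjusted p of at most 0.00683 and 0.0132. The productive share of TRBJ1, thymus against spleen, stayed past the threshold in all 6 (p at most 0.0185). Against TRBJ2 in the thymus it was -2.31 with at least 2 reads, -3.60 with at least 10 and -0.202 without TRBJ1-1, none past the threshold (Fisher's exact test, adjusted exact p = 0.350, 0.290 and 0.952), and in the spleen 2.65, 1.24 and 2.17 (adjusted exact p = 0.316, 0.525 and 0.595). V genes called numbered 7 with at least 10 reads and 2 among productive clonotypes in the thymus, and 2 with at least 2 reads, 1 with at least 10 and 1 among productive clonotypes in the spleen, against 4. The TRBJ1 share of reads among productive clonotypes was 29.4% and 16.3%. With 10 upstream bases compared in place of 6, the leading TRBJ1-1 joint fell to 19.7% and 22.8% of the clonotypes in which a joint could be read. It was 33.8% and 46.9% with 3. The counts by joint, those without TRBJ1-1 and those with other windows were chosen after seeing the data. The causes of these changes were not tested. The libraries differed in depth (2700370 and 4585403 reads), and no result was recomputed at matched depth.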
